A study of Mus musculus with 6 samples.

Results

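Fos, Fosb, Jun, Junb, Jund, Egr1, Nr4a1, Arc, Ier2 and Btg2, 10 of the 21926 genes in the count tables, were followed well by well in single cells sorted from hypothalamus of P10 mice, dissected around the ventromedial nucleus (VMH). They were taken by name as immediate early genes that can be induced when tissue is dissociated. The series holds 3 male and 3 female mice, all of genotype Ai14f/+;Sf1-Cre, with no other treatment named in the labels. Sf1 is another name of Nr5a1, a transcription factor of VMH neurons, so every animal, of either sex, carried Cre driven from Sf1 and the Cre-dependent fluorescent reporter Ai14. Such a driver marks cells by their history of Sf1 expression. Hypothalamus was dissociated with papain, and cells purified by fluorescence fill 96 wells for each mouse, which are called a plate here. The labels do not say which cells the sort kept. Each plate is therefore also a mouse, a dissociation and a library, and these cannot be told apart. No tissue that had not been dissociated was analysed here, so the levels in the intact animal are not known from these data.

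Immediate early genes are transcribed within minutes of a stimulus, from factors already present in the cell, and their RNAs are short-lived. In neurons, calcium entry and growth factor signals act through kinases on CREB and serum response factor at their promoters. The FOS and JUN proteins pair to form the AP-1 transcription factor, EGR1 and NR4A1 are a zinc finger factor and an orphan nuclear receptor, ARC acts at the synapse, and IER2 and BTG2 are regulators of transcription, growth and RNA turnover. The same genes mark neurons that were active in the living brain and cells that were stressed by enzymatic dissociation.

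Wells were kept when 500 or more genes were detected and mitochondrial genes took less than 25% of the counts, which left 530 of 576 wells and 84 to 93 wells a mouse. Median counts per kept well were between 5170 and 7979.5 in 5 mice and 2097 in female 2, the shallowest plate. Summed counts per plate were between 185654 and 783270. Most wells carried neuron markers: 503 of 530 wells had at least 3 of 6 neuron markers, all 6 VMH markers were detected, and 80.2% of wells had at least 1 of them. Of 9 microglial markers, 6 were at 0 (Cx3cr1, C1qa, C1qb, C1qc, Ctss and Tmem119), and the list summed to between 1.28 and 20.4 CPM a mouse (CPM, the count scaled to the total of all counts in the wells summed). The astrocyte list summed to 208 CPM in female 1 and to between 19.4 and 37.7 CPM in the other mice. No 2 wells of different plates held identical counts, and the 96 well names shared by all plates are plate positions, not cell barcodes.

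The 10 genes were sparse. Together they gave 1441 counts in the kept wells, or 435 CPM, and 803 of these counts were from Jund. Without Jund, 273 wells held no count of any of the other 9 genes, 164 wells held 1 of them, 51 held 2 and 42 held 3 or more. The 5 AP-1 subunits were the most abundant group and differed among themselves. Jund, the JUN family member that is expressed in resting cells, had a count in 345 of 530 wells (65.1%). Jun, the first described JUN subunit, had 149 counts in 103 wells, and Junb, which pairs with FOS but activates transcription less strongly than JUN, had 90 counts in 66 wells. Fos, the inducible partner of the JUN proteins, had 111 counts in 53 wells (10.0%). Fosb, its close relative, had 3 counts in 3 wells, 1 in each male mouse and none in a female mouse, where 0 of 88, 87 and 86 wells allows up to 3.41%, 3.45% and 3.49% of wells with a count in females 1, 2 and 3. This limits wells with a count, not wells that express the gene. Egr1 had 170 counts in 104 wells and Nr4a1 had 36 counts in 30 wells. Arc, Ier2 and Btg2 had 26, 13 and 40 counts in 24, 12 and 29 wells. Scaled by the length of the principal transcript, Jund averaged 140 CPM per kilobase over the 6 mice. Fos, Junb, Jun and Egr1 followed at 15.2, 14.9, 13.0 and 11.2 CPM per kilobase, and the other 5 genes were between 0.195 and 4.40 CPM per kilobase. The middle 4 are not separated by their spread over mice. Fos alone had a mean of 32.0 CPM with an SD of 28.3 CPM (n = 6). Without the scaling by length, Egr1, Jun and Junb averaged 50.0, 41.4 and 26.9 CPM, so the order of the 4 depends on that scaling. The labels do not say whether the counts grow with transcript length. On GRCm38 (GENCODE vM21), Fos lies at chr12:85473890-85477273 on the plus strand with 4 exons, and Jun at chr4:95049034-95052222 and Junb at chr8:84974484-84978718 lie on the minus strand with 1 exon each. Jund, at chr8:70698949-70700616 on the plus strand, also has 1 exon, and Nr4a1, at chr15:101254269-101274795 on the plus strand, has 8. Counting was not stated to use strand, so reads of Jun, Junb and Jund cannot be told apart from reads of genes on the opposite strand that share exonic bases with them, which are Junos, Prdx2 and Gm11175.

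Most Fos counts came from 2 plates, 1 of each sex. Fos reached 11.5, 7.47 and 49.0 CPM in males 1, 2 and 3, and 15.9, 26.9 and 81.1 CPM in females 1, 2 and 3. Male 3 and female 3 together held 86 of its 111 counts, although they held 178 of the 530 wells. The share of wells with a Fos count was 6.45%, 3.57% and 19.6% in males 1, 2 and 3, and 6.82%, 5.75% and 17.4% in females 1, 2 and 3. The 13 wells with 3 or more Fos counts were all in these plates, 6 in male 3 and 7 in female 3. The well with most Fos, in female 3, held 8 Fos counts among 3890 counts, with 1 count each of Jun, Jund and Arc, and 4 of the 6 neuron markers. None of the 13 wells held a count of the microglial or astrocyte lists. Of all kept wells, only 3.77% held any microglial and 13.8% any astrocyte count, so 13 wells are too few to set these apart from the rest.

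**Figure D1:**
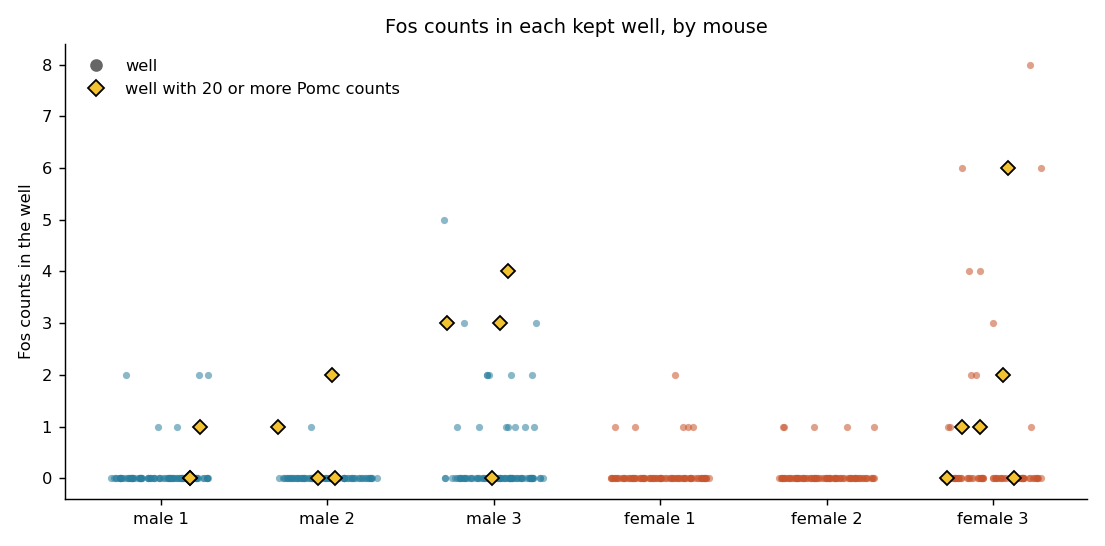
Fos counts in each kept well, by mouse, with males left of females; each point is a well, and diamonds are wells with 20 or more Pomc counts. Wells with 3 or more Fos counts were found in male 3 and female 3, and 10 of the 17 wells rich in Pomc held Fos.

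The other genes followed the plates in different ways. Egr1 was at 24.3, 33.6 and 72.3 CPM in males 1, 2 and 3, and at 83.9, 26.9 and 59.1 CPM in females 1, 2 and 3. Its highest plate was thus female 1, where Fos was low. Nr4a1 was at 11.5, 1.87 and 24.5 CPM in males 1, 2 and 3, and at 13.6, 0 and 1.69 CPM in females 1, 2 and 3. Nr4a1 was therefore nearly absent from female 3, the plate with most Fos, which held 1 Nr4a1 count beside 48 Fos counts. The 0 of 87 wells in female 2 allows up to 16.2 CPM at its depth.

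Jun was at 34.5, 41.1 and 49.0 CPM in males 1, 2 and 3, and at 45.3, 10.8 and 67.6 CPM in females 1, 2 and 3. Junb was nearly even over plates, with 29.4, 20.5 and 27.1 CPM in males 1, 2 and 3, and 27.2, 26.9 and 30.4 CPM in females 1, 2 and 3. Jund was at 158, 422 and 207 CPM in males 1, 2 and 3, and at 211, 91.6 and 309 CPM in females 1, 2 and 3. Male 2 was thus highest for Jund and lowest for Fos. Female 2 was lowest for Jund. When each well was thinned to 2000 counts, which left out 39 wells of female 2 and 16 of the others, 14.6% of 48 wells of female 2 held Jund, against between 27.5% and 51.2% of the wells of the other mice. Over the 6 plates, Arc was between 5.11 and 13.5 CPM, Ier2 between 0 and 8.45 CPM and Btg2 between 5.60 and 22.0 CPM, and each was highest in female 3.

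**Figure D2:**
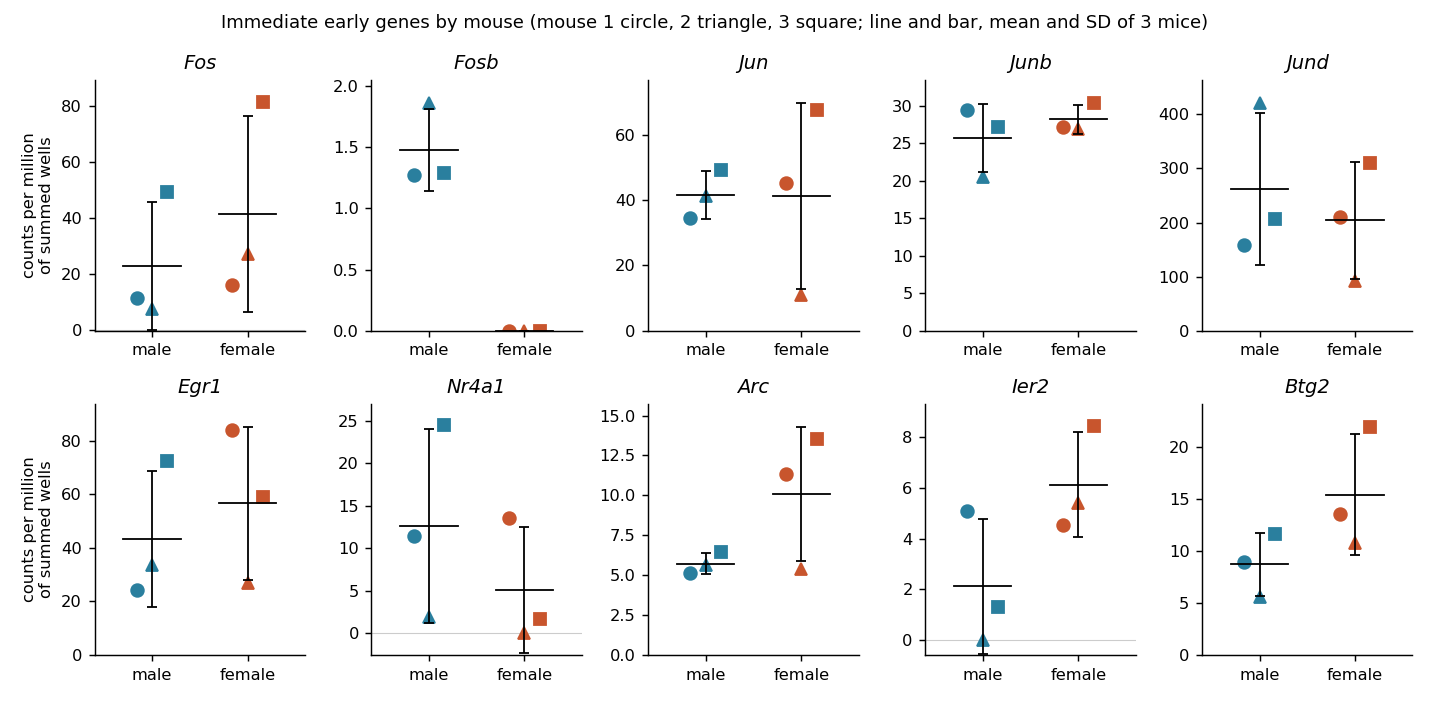
Level of each gene in the summed wells of each mouse, in CPM, males left of females; points are mice, lines are means and bars are SDs of 3 mice. Male 3 and female 3 are the highest plates of their sex for Fos, while Jund is highest in male 2.

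The design compares males with females, and no gene of the set passed the test between them. Of 6794 genes tested on counts summed per mouse with edgeR's quasi-likelihood test, 0 passed an adjusted p of 0.05 (0.0% called), 167 had an unadjusted p under 0.05, and DESeq2 called 4, none of them among the 10. Of the 10, Fos, Egr1, Jun, Junb and Jund passed the low-count filter. Fos averaged 22.7 ± 22.9 CPM in males and 41.3 ± 34.9 CPM in females (SD, n = 3 each), a log2 difference of -0.90 (SE 0.72). The groups overlapped, and without female 3 the Fos difference was 0.24, so its direction depends on that plate. Egr1 averaged 43.4 ± 25.5 CPM in males and 56.6 ± 28.5 CPM in females, a log2 difference of -0.43 (SE 0.48). Jun, Junb and Jund gave log2 differences of -0.12, -0.11 and 0.33. All 5 had an adjusted p of 0.999 in edgeR's quasi-likelihood test, and the 5 other members did not pass the filter. Without it all 10 were tested and 0 were called, where 20 of 15220 genes were (0.131%), with 557 at an unadjusted p under 0.05. Among related genes, 0 of 13 tested immediate early effectors outside the 10, 0 of 12 heat shock genes and 0 of 19 upstream kinases and factors were called, with median log2 differences of -0.20, -0.02 and -0.02 beside -0.03 over all genes.

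Fos, Junb, Egr1, Nr4a1 and Btg2 were detected in the same wells more often than their shares alone would give, while over all mice Jun and Jund were near the expected numbers with Fos. Expected numbers were computed within each mouse from the share of wells with each gene, so that differences between plates do not enter. Of the 53 wells with Fos, 28 held Egr1, where 12.7 were expected, a ratio of 2.20. Junb was found in 18 of them, where 7.08 were expected (2.54). Nr4a1 was found in 12, where 4.01 were expected (3.00), and Btg2 in 9, where 3.45 were expected (2.61). Ier2 and Arc had 4 and 5 shared wells, where 1.35 and 2.77 were expected. Jun shared 12 wells with Fos where 11.9 were expected, a ratio of 1.01 that joins unlike mice. In female 3, 46.7% of wells with Fos held Jun, against 25.4% of wells without, and in the other 5 mice the share was lower in wells with Fos. At a common 2000 counts a well the pair shared 4 wells where 2.04 were expected (1.96), which is too few wells to read. When wells were instead matched by 3 depth classes within the mouse, the ratio was 0.972. Jund shared 42 wells where 37.4 were expected (1.12).

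Among pairs without Fos, Junb and Btg2 shared 12 wells where 3.76 were expected (3.19), Junb and Nr4a1 shared 12 where 4.86 were expected (2.47), Egr1 and Btg2 shared 16 where 6.50 were expected (2.46), and Junb and Egr1 shared 28 where 14.2 were expected (1.97). Jun shared 14 wells with Junb where 13.9 were expected, and 25 with Egr1 where 23.2 were expected. Its highest ratio, among pairs with at least 1 shared well expected, was with Btg2, at 14 wells where 6.49 were expected (2.16). When wells were also matched by 3 depth classes within the mouse, the ratios with Fos were 2.42 for Junb, 2.04 for Egr1, 3.26 for Nr4a1, 2.42 for Btg2 and 0.972 for Jun. So matched, Junb gave 2.60 with Btg2, 2.17 with Nr4a1 and 1.69 with Egr1, Egr1 gave 1.96 with Btg2, and Jun gave 0.897 with Junb, 0.978 with Egr1 and 1.92 with Btg2. Thinned wells were too few to read these pairs, with at most 3 shared wells in each: Junb and Egr1 shared 2 where 1.83 were expected (1.09), Junb and Nr4a1 3 where 0.785 were expected (3.82), Egr1 and Btg2 2 where 0.785 were expected (2.55), and Egr1 and Nr4a1 1 where 0.936 were expected (1.07). Junb and Btg2 shared 0 where 0.33 were expected, and Jun shared 2 with Junb (1.51), 2 with Egr1 (0.717), 1 with Nr4a1 (1.90) and 0 with Btg2. These are descriptions of wells that share a plate, and no test was made on them. Rank correlations over wells were weak: the median over mice of Spearman's rho with Fos, on counts scaled to the depth of the well, was 0.32 for Egr1, 0.25 for Junb, 0.28 for Nr4a1 (5 mice) and -0.04 for Jun.

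**Figure D3:**
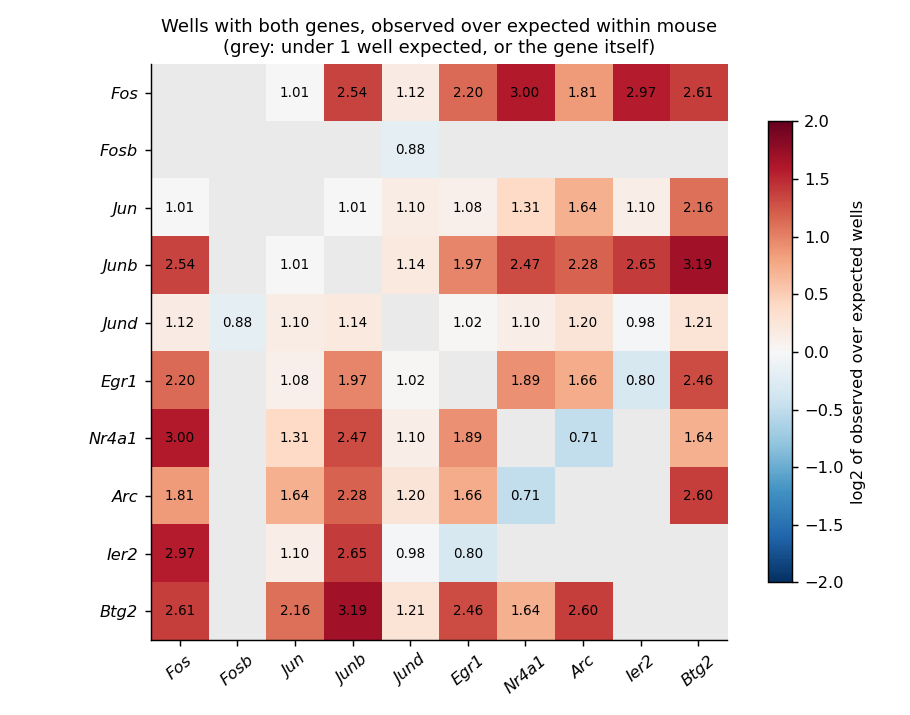
Wells that held both genes of a pair, as the number observed over the number expected within mice; colour is the log2 of the ratio, and grey cells had under 1 well expected or are a gene with itself. Pairs among Fos, Junb, Egr1, Nr4a1 and Btg2 are between 1.64 and 3.19, with Fos and Junb at 2.54, while Jund is between 0.88 and 1.21 with every partner shown and Jun has 1.01 with both Fos and Junb.

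Wells with Fos were next set against wells without it within each mouse, on summed counts and with the mouse as a block. Egr1 rose in wells with Fos. In wells with Fos it was at 38.1, 302, 157, 200, 165 and 140 CPM in males 1, 2 and 3 and females 1, 2 and 3, against 23.3, 23.3, 49.3, 73.8, 17.3 and 44.1 CPM in the wells without Fos of the same mice. It was higher with Fos in all 6 mice, by least in male 1. Male 2 had only 3 wells with Fos and was left out of the fit, which over the other 5 mice gave a log2 fold change of 1.57 (SE 0.33) and an adjusted p of 0.0014 in edgeR's quasi-likelihood test. Of 2987 genes tested, 11 were called (0.368%), and Egr1 was 1 of the 2 members tested. It passed the low-count filter mainly through the side where it is high: of the 5 sums at or above the cutoff of 59.0 CPM, 4 were wells with Fos and 1 was wells without, so that it was tested is no support. Jund, the other, averaged 195 ± 82.4 CPM in wells with Fos and 195 ± 80.0 CPM in wells without (SD, n = 5), a log2 fold change of -0.02 (SE 0.20). The Egr1 call was lost without female 3, with an adjusted p of 0.0611 at a log2 fold change of 1.54, and when at least 2 Fos counts were asked for, which left 2 mice, with an adjusted p of 0.247 at 1.29. DESeq2 gave an adjusted p of 0.0392. Without male 3 or female 1, Egr1 was not kept by the filter; with no filter its log2 fold change was 1.39 (edgeR adjusted p 0.0141), and 1.21 with an adjusted p of 0.435 without male 3 and 1.32 with 0.237 without female 3.

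The members removed by the low-count filter were examined in the same fit without the filter, in which 15018 genes were tested and 39 called (0.26%). Junb was at 95.2, 101, 42.3, 114, 0 and 151 CPM in wells with Fos of males 1, 2 and 3 and females 1, 2 and 3, against 24.6, 17.5, 23.0, 19.7, 28.8 and 8.02 CPM in wells without Fos. It was higher with Fos in 5 of 6 mice and at 0 in the 5 Fos wells of female 2. Its log2 fold change was 1.92 (SE 0.40, adjusted p 0.0017 in edgeR's quasi-likelihood test without the filter), but 7 of the 14 Junb counts in Fos wells of female 3 came from 1 well, and without that mouse the value was 1.20 with an adjusted p of 0.672. Btg2, an antiproliferative regulator of messenger RNA decay, averaged 54.9 ± 37.6 CPM with Fos and 7.39 ± 2.09 CPM without (SD, n = 6), and the fit over 5 mice gave a log2 fold change of 2.44 (SE 0.54, adjusted p 0.0048 in the same edgeR fit). By share of wells, the direction of Btg2 was not the same in every mouse. It was found in 0 of the 3 Fos wells of male 2. In male 3 it was found in 5.56% of wells with Fos and 6.76% of wells without, and in each other mouse the share was higher with Fos. The wells with Fos held 18 Btg2 counts in 9 wells, and the call was lost without male 1, female 1 or female 3, at adjusted p 0.11, 0.0842 and 0.385. Nr4a1 had a log2 fold change of 2.19 (SE 0.58) and missed the threshold with an adjusted p of 0.0589. In these unfiltered fits Jun was at -0.07 (SE 0.42) and Arc at 0.68 (SE 0.84), each with an adjusted p above 0.9 in edgeR.

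**Figure D4:**
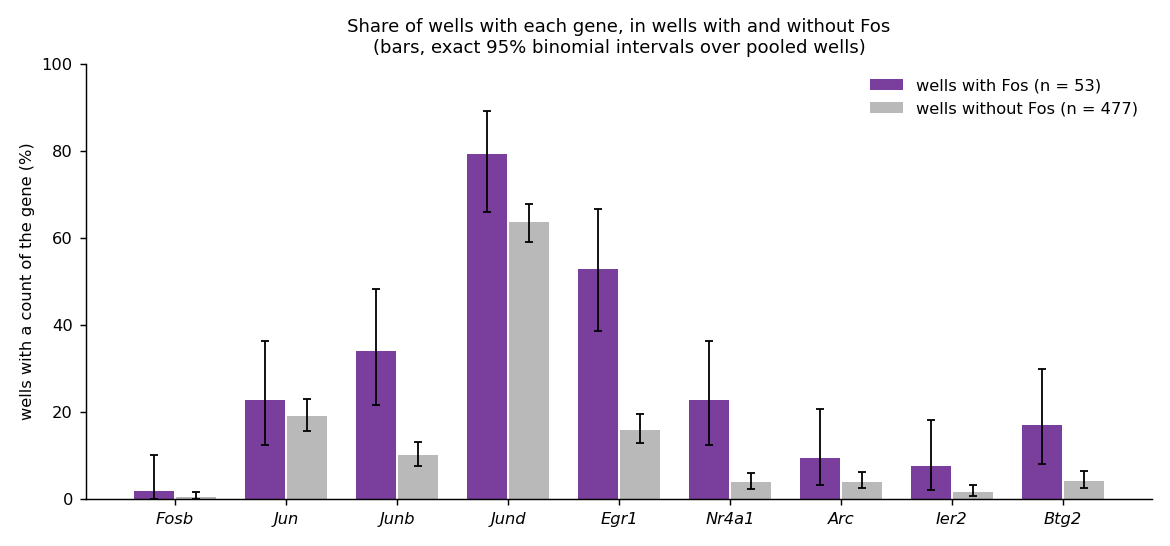
Share of wells with a count of each gene, in wells with Fos (n = 53) left of wells without Fos (n = 477), pooled over mice; bars are exact 95% binomial intervals, which cover counting error only. Egr1 was found in 52.8% of wells with Fos and 15.9% of wells without, and Jun in 22.6% and 19.1%.

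Depth and markers of other cells were compared on the same sides. The median count of wells with Fos was higher than in wells without Fos in 5 of 6 mice (9528.5 against 7786 counts in male 3) and lower in female 3 (5433 against 6879 counts). Thinned to 2000 counts a well, 11 of 31 wells with Fos held Egr1, against 31 of 444 wells without Fos, 5 of 31 held Junb, against 16 of 444, and 4 of 31 held Jun, against 27 of 444. The microglial and astrocyte lists summed to 2.64 and 23.8 CPM in wells with Fos, against 6.82 and 53.9 CPM in wells without.

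No further list had a called gene beside Fos. Of 17 further immediate early transcription factors, 15 were detected, Fosl1 and Atf3 were at 0, and none had enough counts to be tested beside Fos. The most abundant of them was Klf6, with 135 counts in 111 wells, and Npas4, a factor induced by calcium entry in neurons, had 37 counts in 31 wells. Of 31 further immediate early effectors, 8 were tested, 0 were called and 6 were positive, with a median log2 fold change of 0.14 beside -0.02 over all genes. For 11 tested heat shock genes these were 0 called, 4 positive and a median of -0.09, and for 7 tested upstream kinases and factors 0 called, 5 positive and 0.05. All 5 tested VMH neuron markers were lower in wells with Fos, with a median of -0.48, and 0 of them passed the test. Of 6 neuron markers 0 were called and 1 was positive, with a median of -0.19.

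Besides Egr1, 10 genes were called beside Fos. Rps14, a ribosomal protein gene, was higher in 5 of 5 mice (log2 fold change 0.44, SE 0.11). Penk, which encodes the enkephalin precursor, averaged 14.8 ± 13.8 CPM in wells with Fos and 97.1 ± 48.1 CPM in wells without (SD, n = 5; log2 fold change -2.27, SE 0.49), and Nell2, Syp and Tuba1a were also lower in 5 of 5 mice, at -1.23, -0.92 and -0.30. At the filter cutoff of 59.0 CPM, Penk was kept only through the wells without Fos, where it is high. That it was tested is therefore no support. Nell2 averaged 62.0 ± 42.4 CPM in wells with Fos and 174 ± 36.5 CPM in wells without. The other 5 genes, Pomc, Cited1, Sst, Pdyn and Cox6a2, did not move the same way in every mouse. Of these, Sst rests on few wells: 405 of its 582 counts in wells with Fos came from 1 well of female 3, it was higher in 2 of 5 mice, and it was not called with a robust prior.

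Fos was found in a large share of the wells with many counts of Pomc. Pomc, the precursor of melanocyte-stimulating hormone, marks neurons of the arcuate nucleus beside the VMH. This gene was singled out after its values were seen. Wells fell into those with 20 or more Pomc counts, of which there were 17, and those with fewer than 5. Any Pomc count was found in 15 of the 53 wells with Fos and in 54 of the 477 wells without. Fos was detected in 10 of the 17 wells rich in Pomc (58.8%) and in 43 of the 513 others (8.38%). By mouse it was found in 1 of 3 such wells in male 1, 2 of 4 in male 2, 3 of 4 in male 3 and 4 of 6 in female 3, and females 1 and 2 had no such well. The Pomc-rich wells therefore held 24 of the 111 Fos counts. Junb was found in 47.1% of them and 11.3% of the others, Egr1 in 41.2% and 18.9%, and Btg2 in 17.6% and 5.07%, while Jun was found in 11.8% and 19.7%. Their median depth was 7605 counts, against 5771 counts in the other wells.

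The promoter sequences of Fos and of the 3 partners Junb, Nr4a1 and Btg2 are shown with that of Jun, whose ratio with Fos over all wells was 1.01, for comparison. Each is the 250 bases before the RefSeq start (GRCm38.p6), 5′ to 3′ on the strand of the gene, and capitals mark the core of the cyclic AMP response element, TGACG, on either strand (read as CGTCA on the opposite one) or the full element TGACGTCA, which contains the core on both strands. CREB binds this element. The windows are chr12:85473640-85473889 (plus strand), chr8:84978749-84978998 (minus strand), chr15:101266596-101266845 (plus strand), chr1:134079156-134079405 (minus strand) and chr4:95052223-95052472 (minus strand). None overlaps an annotated exon, and the windows of Nr4a1 and Jun lie inside the annotated spans of Nr4a1 and of Junos.
Fos: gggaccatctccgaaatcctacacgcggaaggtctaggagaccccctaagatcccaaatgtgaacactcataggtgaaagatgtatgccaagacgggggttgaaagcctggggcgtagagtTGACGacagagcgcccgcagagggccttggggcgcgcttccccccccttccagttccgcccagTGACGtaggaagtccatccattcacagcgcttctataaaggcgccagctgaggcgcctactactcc
Junb: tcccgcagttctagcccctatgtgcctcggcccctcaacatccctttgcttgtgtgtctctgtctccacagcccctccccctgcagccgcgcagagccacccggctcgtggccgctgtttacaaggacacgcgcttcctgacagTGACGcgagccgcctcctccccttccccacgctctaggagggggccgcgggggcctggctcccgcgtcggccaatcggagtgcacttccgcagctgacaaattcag
Nr4a1: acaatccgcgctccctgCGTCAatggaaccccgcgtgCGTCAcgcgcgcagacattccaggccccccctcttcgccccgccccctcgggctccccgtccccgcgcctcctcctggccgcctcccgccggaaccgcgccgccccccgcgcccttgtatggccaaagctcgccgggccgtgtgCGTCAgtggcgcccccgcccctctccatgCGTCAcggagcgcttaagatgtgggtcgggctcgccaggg
Btg2: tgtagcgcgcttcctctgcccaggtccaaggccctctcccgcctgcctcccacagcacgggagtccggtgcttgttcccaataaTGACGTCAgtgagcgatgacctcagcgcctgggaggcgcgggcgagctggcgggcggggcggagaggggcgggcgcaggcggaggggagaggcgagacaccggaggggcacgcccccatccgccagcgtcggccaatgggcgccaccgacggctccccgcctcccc
Jun: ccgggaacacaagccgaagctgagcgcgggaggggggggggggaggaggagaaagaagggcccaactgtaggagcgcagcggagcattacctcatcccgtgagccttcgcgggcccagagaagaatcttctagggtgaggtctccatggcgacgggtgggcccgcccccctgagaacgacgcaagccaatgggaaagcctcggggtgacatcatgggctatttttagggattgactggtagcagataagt

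Fos held 2 cores, the first at bases 129 to 125 and the second at bases 66 to 62 before its start. Junb held 1 at bases 106 to 102, Nr4a1 held 4, and Btg2 held a full element at bases 166 to 159. The Fosb window, which is not shown, held 1 core. The window of Jun held no core. It does hold tgacatca, which differs from the full element at 1 base, and such near matches were not searched for in any window. The Jund window also held no core, but its RefSeq start lies 1210 bases before the gene start given above, so this window is not next to that start. Over the 32851 promoter windows of the same length, 17.8% held the core and 1.55% the full element. RefSeq windows were matched for 7 of the 10 genes; Egr1, Arc and Ier2 had no entry. A match of letters is a description of the window and says nothing of binding.

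The genes were next compared between wells with and without the neuropeptide genes Tac1, Pdyn and Sst, which divide the neurons of the region, again within mice. Wells with Tac1, the substance P precursor, had less Fos in the mice where Fos was high. In wells with Tac1 the Fos level was 15.1, 4.48, 24.2, 14.2, 41.4 and 18.5 CPM in males 1, 2 and 3 and females 1, 2 and 3, against 8.83, 9.61, 63.9, 17.4, 21.8 and 157 CPM in wells without Tac1. It was thus lower with Tac1 in 4 of 6 mice, and by most in female 3 and male 3. Wells with Tac1 were deeper in each mouse (7867.5 against 5432 counts at the median in female 3, and 10620 against 7491 in male 3). The part of depth in the Fos levels was not tested. In wells thinned to a common depth, Fos was found in 4.35% of 138 wells with Tac1 and 7.42% of 337 wells without. The pair then shared 6 wells where 9.21 were expected within mice (0.652). Matched by depth class within the mouse, the ratio was 0.829. No test was made on these shares. Fos did not pass the filter. Without the filter, where 71 of 15219 genes were called (0.467%), its log2 fold change was -1.51 (SE 0.34, adjusted p 0.0029 in edgeR's quasi-likelihood test). Without female 3 the value was -0.62 with an adjusted p of 0.994, and without male 3 it was -1.48 with an adjusted p of 0.103. With the filter, 3 members were among 4392 genes tested, of which 39 were called (0.888%), and none of the 3 was called. Egr1 averaged 55.4 ± 19.3 CPM with Tac1 and 45.9 ± 31.0 CPM without (SD, n = 6; log2 fold change 0.28, SE 0.26), and Jun 30.9 ± 18.7 CPM with Tac1 and 50.3 ± 25.7 CPM without (-0.60, SE 0.26, adjusted p 0.436 in edgeR).

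Egr1 was higher in wells with Pdyn, the dynorphin precursor. It was at 35.8, 51.3, 91.6, 92.0, 34.1 and 94.5 CPM in wells with Pdyn of males 1, 2 and 3 and females 1, 2 and 3, against 8.93, 17.7, 36.7, 74.3, 25.6 and 34.5 CPM in wells without Pdyn. Every mouse had the higher level on the Pdyn side, with the smallest gaps in females 1 and 2. Egr1 did not pass the filter, and neither of the 2 members that did, Jun and Jund, was called among 67 of 4199 genes (1.6%). Without the filter 95 of 15219 genes were called (0.624%), and Egr1 rose by 1.18 on the log2 scale (SE 0.26, adjusted p 0.0015 in edgeR's quasi-likelihood test). The adjusted p was 0.0703 without male 3 and under 0.05 without each other mouse. At least 2 Pdyn counts against 0 gave 1.18 with an edgeR adjusted p of 0.0089, in a fit of 5 mice where Egr1 passed the filter. In that fit 112 of 4412 genes were called. The side through which Egr1 passed was not examined, so that it was tested is no support. Fos itself was found in 14.3% of wells with Pdyn and 6.86% of wells without. Its mean levels were 29.3 ± 28.4 CPM with Pdyn and 28.6 ± 32.0 CPM without (SD, n = 6). These SDs span mice and leave out the pairing of the 2 sides. In the paired fit without the filter, Fos was not called. Wells with Pdyn were deeper in each mouse, for example 9807 against 7243 counts at the median in male 1. In wells thinned to a common depth, Fos was found in 10.7% of 131 wells with Pdyn and 4.94% of 344 wells without. The pair then shared 14 wells where 7.95 were expected within mice (1.76). Matched by depth class within the mouse, the ratio was 1.29. Over all kept wells the pair shared 32 wells where 24.3 were expected within mice (1.32). Pdyn was in 0 of the 5 wells with Fos of female 2, and in each other mouse its share was higher in wells with Fos. The percentages of wells given here pool the mice. No test was made on these shares, and the part of depth in them was not tested. Of the further immediate early effectors, 2 of 8 tested were called here. Nptx2, a secreted pentraxin that gathers at excitatory synapses, averaged 130 ± 120 CPM with Pdyn and 57.1 ± 43.6 CPM without (log2 fold change 1.15), and Scg2, a granin of secretory granules, 1200 ± 304 CPM with Pdyn and 913 ± 285 CPM without (0.41). Both were higher in 6 of 6 mice, at edgeR adjusted p 0.00014 and 0.00064.

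No member was called with Sst, the somatostatin gene. Only Jund passed the filter, where 7 of 3181 genes were called (0.22%). Jund was not among them, with 213 ± 150 CPM in wells with Sst and 237 ± 112 CPM in wells without (log2 fold change -0.05, SE 0.14). Without the filter, where 17 genes were called (0.112%), 0 of the 10 were among them. Junb had the lowest unadjusted p of them: it averaged 47.3 ± 18.1 CPM with Sst and 21.7 ± 5.25 CPM without, higher in 5 of 6 mice, with a log2 fold change of 0.91 (SE 0.36) and an adjusted p of 0.663 in edgeR. Fos was in 8.74% of wells with Sst and 10.3% of wells without.

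**Figure D5:**
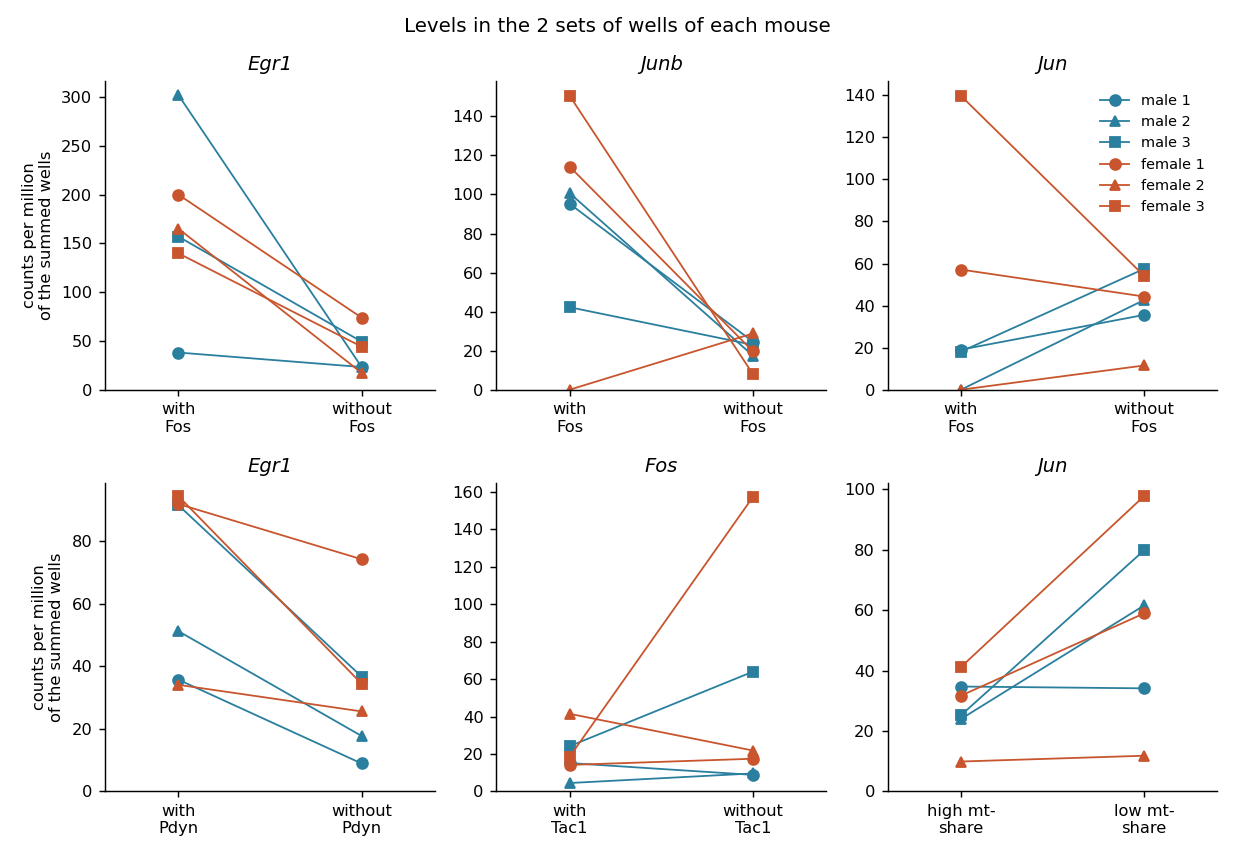
Levels in CPM in the 2 sets of wells of each mouse, for the 6 cases described in the text; each line is a mouse, males in blue and females in orange. Egr1 lies higher with Fos and higher with Pdyn in all 6 mice, Fos differs most between Tac1 sides in female 3, and Jun is lower in the wells of high mitochondrial share in 5 of 6 mice.

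Cell quality was examined by splitting each plate at its median share of mitochondrial counts. Wells of high share were also deeper in 5 of 6 mice, for example 10318.5 against 6763.5 counts at the median in male 3. In female 1 the medians were 5048.5 and 5257 counts. The split is therefore not separate from depth, and the part of depth in the values below was not tested. Of the 3 tested members, Jun differed most. It was at 34.7, 24.0, 25.2, 31.7, 9.90 and 41.2 CPM in the wells of high share of males 1, 2 and 3 and females 1, 2 and 3, against 34.1, 61.6, 79.9, 59.0, 11.8 and 97.8 CPM in the wells of low share. It was lower at high share in 5 of 6 mice, and the 2 sides of male 1 were alike. Its log2 fold change was -1.01 (SE 0.26) and just missed the threshold, with an adjusted p of 0.0571 in edgeR's quasi-likelihood test. Among 4504 genes tested 19 were called (0.422%) and 0 of the 3 tested members. The adjusted p of Jun was 0.0155 without male 1, 0.0424 with the robust prior, a setting added after seeing the data, and 0.169 without male 2, and DESeq2 gave 0.9999. In 3 nearly equal classes of the wells of each mouse, from low to high share, summed Jun was at 74.4, 34.4 and 30.9 CPM.

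Tac1 moved with this split, at 1167 ± 404 CPM in wells of high share and 415 ± 192 CPM in wells of low share (SD, n = 6), and its part in the Jun values was not tested. The other 2 tested members, Egr1 and Jund, gave log2 fold changes of 0.21 (SE 0.24) and -0.19 (SE 0.12). Fos was found in 10.6% of wells of high share and 9.40% of wells of low share. The count of members other than Jund in a well had a median rank correlation with the mitochondrial share of -0.08 over mice, between -0.22 and 0.08. Bdnf, a neurotrophin induced by activity, was the 1 further immediate early effector of 8 tested that was called. It averaged 213 ± 56.4 CPM at high share and 140 ± 45.3 CPM at low share (log2 fold change 0.65, edgeR adjusted p 0.0061). Unlike the Tac1 values, these were scaled to the counts outside the mitochondrial genes.

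Deep wells held Egr1 and Jun more often. Split at the median count of each mouse, Egr1 was found in 25.8% of deep wells and 13.5% of shallow wells, and Jun in 24.2% and 14.7%. Egr1 was at 51.5 ± 26.2 CPM in deep wells and 47.4 ± 34.8 CPM in shallow wells (SD, n = 6). Jun was at 41.2 ± 18.5 and 41.4 ± 23.7 CPM on the same sides. The fit paired within mice gave log2 fold changes of 0.32 (SE 0.27) for Egr1 and -0.02 (SE 0.26) for Jun. Neither was called. In 3 nearly equal classes of the wells of each mouse, from shallow to deep, summed Egr1 was at 40.1, 37.0 and 65.2 CPM and summed Jun at 55.6, 49.3 and 37.9 CPM. The rank correlation of the scaled Egr1 count with depth was above 0 in all 6 mice, between 0.03 and 0.29. This sign was not particular to Egr1: it held in all 6 mice for Junb (0.01 to 0.21) and Arc (0.05 to 0.28). Most wells held 0 counts of these genes, so the ranks largely separate wells with a count from wells without. Of 4155 genes tested 120 were called (2.89%), and 0 of the 3 tested members. Jund was closest, at 219 ± 121 CPM in deep wells and 259 ± 120 CPM in shallow wells (log2 fold change -0.24, SE 0.12, adjusted p 0.397 in edgeR). Summed Fos was lower in deep wells, though wells with Fos were not fewer there. It was found in 10.6% of deep wells and 9.40% of shallow wells and was at 7.64, 8.71, 38.5, 10.3, 25.2 and 45.0 CPM in deep wells of males 1, 2 and 3 and females 1, 2 and 3, against 19.3, 5.23, 70.5, 26.8, 30.0 and 145 CPM in shallow wells. Fos was lower in the deep wells of 5 of 6 mice. In the 3 classes from shallow to deep, summed Fos was at 69.4, 24.7 and 24.8 CPM, but the median over mice was 17.0, 22.2 and 16.5 CPM, and the median rank correlation of scaled Fos with depth was 0.06 (-0.15 to 0.10). Without the filter, where 199 of 15220 genes were called (1.31%), Fos fell by 1.07 on the log2 scale (SE 0.31, adjusted p 0.0401 in edgeR), and without female 3 the value was -0.73 with an adjusted p of 0.877. The call was also lost without male 1, male 3 or female 1, at adjusted p 0.099, 0.0949 and 0.0839. Among the further immediate early effectors Scg2, Nptx2 and Bdnf were called, 3 of 8 tested. Scg2 and Bdnf were higher in deep wells in 6 of 6 mice, and Nptx2 in 4 of 6.

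Position on the plate was compared between its lower and upper rows. In female 3, rows E to H held 27 Fos counts in 47 wells and rows A to D held 21 in 39 wells, and in male 3 they held 22 in 47 wells and 16 in 45 wells. Fos was thus found in upper and lower rows of both plates.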

How the data were processed

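The authors deposited raw counts per gene and well, 21926 genes in 96 wells for each of 6 mice, made from BD Precise whole transcriptome libraries per the labels' protocols. HTSeq and the mm10 build are named in the submitters' processing notes; the labels give no versions, no strand setting and no word on whether molecules or sequencing reads were counted. Of 576 wells, 46 fell short of 500 genes and were not used. These held 4640 counts, 4 of them from the 10 genes. The 10 genes and the lists of related genes were chosen with earlier results of these data known.

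Counts were summed per mouse, or per mouse and side of a split of its wells, and tested with edgeR 4.0.16 (TMM scaling, filterByExpr, quasi-likelihood F test, Benjamini-Hochberg adjustment over all genes tested, threshold 0.05) in R 4.3.3. Splits carried the mouse as a block, left out the gene or the mitochondrial genes that made them, and dropped mice with under 5 wells on a side. SE is the absolute log2 fold change over the square root of F. Each mouse is 1 replicate; wells are not replicates, and intervals and the limit that a count of 0 allows (3 counts) cover counting error only. CPM values are the count scaled to the total of all counts summed in the wells named. For Bdnf by mitochondrial share, that total leaves out the mitochondrial genes. Some values in the splits by a gene leave out the gene that made the split. The mean of 3 or more mice is given with its SD. Names followed a fixed rule: the 10 genes, Tac1, Pdyn and Sst, called genes of the lists, and, beside Fos, called genes of at least 20 CPM that moved one way in every mouse. Pomc, Cited1 and Cox6a2, and the threshold of 20 Pomc counts, were chosen after their values were seen, as were Klf6, Npas4 and the marker values.

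Alternatives were DESeq2 1.42.0, other scaling, filters, wells thinned to 2000 counts, other definitions of a split, no block, a robust prior and leaving out each mouse. On simulated data with 200 genes changed 4-fold, the test recovered 93.4% of those tested between sexes (6794 genes) and 97.8% beside Fos (2987 genes). The simulation used only genes past the filter and gave them all the same dispersion. It therefore does not show how often a change in the sparse members would be found. Gene positions and lengths were read from GENCODE vM21 (GRCm38) and promoters from RefSeq (GRCm38.p6), the build to which mm10 corresponds.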

Additional observations from a re-analysis of the deposited data

Results flagged for a closer look

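In wells with Sst, female 2 had 0 Jund counts in 15 wells and 31420 counts, and its 72 wells without Sst held 17 Jund counts in 154234 counts. At the level of the wells without Sst, 3.46 Jund counts were expected in the wells with Sst, so the difference rests on few counts. Its log2 difference of -4.01 lay far from those of the other 5 mice, but with 0 counts on one side this value is set by the added prior count and is no measure of size. Female 2 was the shallowest plate, and the part of depth was not tested. A check of this kind marks about 1 group in 20 by chance.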

How the results depend on the processing

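Few counts limit these results: Fos has 111 counts and 53 wells, so single wells and mice decide several values. Genes called with DESeq2 numbered 4 between sexes, 2 beside Fos, 6 for Tac1, 31 for Pdyn, 1 for Sst, 2 for mitochondrial share and 19 for depth. With no low-count filter they numbered 20, 39, 71, 95, 17, 38 and 199 in the same order. With no mouse block they numbered 0 beside Fos, 0 for Tac1, 1 for Pdyn, 1 for Sst, 0 for mitochondrial share and 0 for depth, and thinned to 2000 counts 0, 7, 5, 2, 10 and 6. With 3 neuron markers 18 genes were called beside Fos (4 mice). Asking for at least 2 counts gave 38 beside Fos (2 mice), 112 for Pdyn and 11 for Sst, and 1000 genes per well gave 77 for depth. The causes were not tested.

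Egr1 beside Fos was not called with no mouse block (adjusted p 0.927 in edgeR). Values near 0 turned in sign: Jund with no mouse block was 0.093 beside Fos and 0.0045 for Pdyn, and Jun for depth was 0.024 with DESeq2, 0.071 with no filter, 0.026 with 1000 genes per well and 0.00058 under 10% mitochondrial. The replicate numbers did not pair the mice (correlations of same-numbered mice -0.12, -0.07 and 0.15); with the replicate block 0 genes were called between sexes and Jun was at 0.037.

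Leaving out each mouse gave 0 to 3 genes called between sexes, 5 to 17 beside Fos, 17 to 48 for Tac1, 41 to 83 for Pdyn, 4 to 8 for Sst, 12 to 21 for mitochondrial share and 45 to 113 for depth. Between sexes the log2 difference then lay between -2.12 and 0.24 for Fos, -0.42 and 0.39 for Jun, -0.22 and 0.042 for Junb, and -0.15 and 0.75 for Jund. It lay between -1.25 and 0.46 for Jun (no filter; 0.056 without male 1) and -0.039 and 0.0090 for Jund beside Fos, -0.015 and 0.58 for Egr1 with Tac1, -0.18 and 0.032 for Jund with Sst, and -0.16 and 0.026 for Jun with depth.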
